A study of Mus musculus with 6 samples.

Results

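Provisional, pericellular and basement membrane matrix genes were read from RNA-Seq counts of sympathetic ganglion cultures from Slit2fl/fl and Slit2th mice. The 10 genes, chosen by name out of 20173 in the table, were the matrix glycoproteins and proteoglycan Fn1, Tnc, Postn, Vcan and Tgfbi, the hyaluronan genes Has2 and Cd44, and the basement membrane genes Hspg2, Nid1 and Nid2. Libraries came from 3 Slit2fl/fl and 3 Slit2th samples. All carry Slit2 alleles flanked by loxP sites, and in Slit2th mice Cre recombinase driven by the Th (tyrosine hydroxylase) promoter is meant to delete Slit2 in sympathetic neurons. Per the study's methods, the mice were males aged 3 weeks on a C57BL/6J background, and cells of the sympathetic chain were kept in neuronal medium with B27 for 4 to 5 days before RNA was taken. The labels call the cells neurons of the sympathetic ganglion. The isolation protocol that the RNA-Seq method refers to instead names dorsal root neurons, so the sources differ on the tissue dissected. How many mice stand behind a library is not given in the sources used here, so p-values measure the spread between these libraries, which may be technical in part.

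Fibronectin, tenascin C, periostin and versican form the provisional matrix that cells lay down in development, after injury and in culture. Fibronectin binds integrins and is assembled into fibrils, to which tenascin C and periostin attach, and versican is a large chondroitin sulfate proteoglycan that binds hyaluronan. Hyaluronan is extruded by the synthases of the Has family and is held at the cell surface by the receptor CD44. Perlecan (Hspg2) and the nidogens join laminin and type IV collagen in the basement membrane, which in peripheral nerve is laid down around Schwann cells.

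Promoter sequences of 7 of the 10 genes, at 9 start sites, were found in the RefSeq promoter table (GRCm38.p6, 250 bases before to 50 bases after each start site); Fn1, Has2 and Nid2 had no entry. The promoters of Tnc (the downstream of its 2 start sites) and Vcan, the genes with the largest log2 fold changes, are shown with that of Nid1, the gene with the highest level. Capitals mark matches on either strand to 5 motifs, the TATA box (TATAA), the CCAAT box (CCAAT), the GC box (GGGCGG), AP-1 (TGANTCA) and TEAD (CATTCC), none of which overlap each other in these 3 windows. Of 32851 promoters of this length in the table, 24.9%, 37.4%, 35.7%, 7.81% and 14.7% hold these motifs, in that order.
Tnc, chr4:64046887-64047186, minus strand: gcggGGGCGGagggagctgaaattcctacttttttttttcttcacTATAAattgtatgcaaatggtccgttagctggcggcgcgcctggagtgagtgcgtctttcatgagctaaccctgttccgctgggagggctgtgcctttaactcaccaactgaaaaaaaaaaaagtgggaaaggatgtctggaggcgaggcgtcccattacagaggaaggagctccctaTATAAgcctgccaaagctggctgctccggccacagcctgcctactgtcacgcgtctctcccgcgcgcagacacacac
Vcan, chr13:89742463-89742762, minus strand: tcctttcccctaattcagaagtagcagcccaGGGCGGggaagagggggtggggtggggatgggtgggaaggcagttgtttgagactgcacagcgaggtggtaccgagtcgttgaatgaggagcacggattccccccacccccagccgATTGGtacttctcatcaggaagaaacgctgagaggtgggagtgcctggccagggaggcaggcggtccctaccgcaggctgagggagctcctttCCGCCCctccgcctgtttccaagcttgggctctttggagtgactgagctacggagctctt
Nid1, chr13:13437352-13437651, plus strand: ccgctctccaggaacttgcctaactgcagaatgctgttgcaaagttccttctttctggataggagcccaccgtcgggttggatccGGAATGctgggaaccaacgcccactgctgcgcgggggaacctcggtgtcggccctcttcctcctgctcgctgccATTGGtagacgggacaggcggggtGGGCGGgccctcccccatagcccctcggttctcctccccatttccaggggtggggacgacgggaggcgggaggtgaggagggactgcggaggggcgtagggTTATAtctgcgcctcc
The Tnc window holds TATA box matches at -205 and -27 and a GC box match at -246, counted from the start site as 0. The Vcan window holds no TATA box match, a CCAAT box match at -103 and GC box matches at -219 and -10. In Nid1 the matches are a TEAD match at -165, a CCAAT box match at -91, a GC box match at -67 and TATAA on the opposite strand at 34. The AP-1 letters are in 0 of the 9 member windows. These are matches of letters and not measured binding sites.

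Total counts were 1255939 to 3155406 per library, and 3 counts of a gene, taken as the floor of detection for counting error only, correspond to 0.951 to 2.39 CPM (counts scaled to a library of 1000000). Values below are CPM scaled by edgeR's TMM factors. For the targeted gene Slit2 the values were 44.5, 55.1 and 43.8 CPM in the Slit2fl/fl libraries against 15.0, 11.5 and 15.2 CPM in the Slit2th libraries, lower as the labels have it. By edgeR's quasi-likelihood test on all 6 libraries its log2 fold change was -1.78 (standard error 0.37, unadjusted p = 0.000933, Benjamini-Hochberg adjusted p = 0.422). Slit2 itself thus did not reach an adjusted p under 0.05 in that fit. Th had 0 counts in all 6 libraries and the 19 sympathetic neuron markers counted summed to only 202 to 593 CPM, whereas the 16 glia markers summed to 6264 to 21560 CPM, so the defining markers of the labelled neurons were absent or low. In such bulk cultures, more cells of a type and more RNA per cell cannot be told apart. Of 12152 genes tested with edgeR's quasi-likelihood test, 0 (0%) had a Benjamini-Hochberg adjusted p under 0.05 and 1309 (10.8%) an unadjusted p under 0.05, and limma voom likewise called 0 while DESeq2 called 34.

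In TMM-scaled CPM, versican, tenascin C and fibronectin transcripts stood higher in every Slit2th library than in every Slit2fl/fl library. Among the genes tested, Postn, Tgfbi, Cd44 and Hspg2 overlapped between the groups. Vcan averaged 59.8 ± 21.9 CPM in the Slit2fl/fl libraries against 181 ± 137 CPM in the Slit2th libraries, Tnc 274 ± 36.1 against 603 ± 324 CPM, and Fn1 251 ± 102 against 441 ± 95.0 CPM (SD, n = 3 each). No gene of the 10 passed the adjusted threshold of edgeR's test, and Vcan and Tnc had an unadjusted p under 0.05. Of the 9 genes tested, 6 had log2 fold changes above 0 and 3 below 0, with a median of 0.41 against -0.05 for all genes tested, of which 47.8% were positive. That median was 0.18 without Slit2th replicate 2 and 0.20 without Slit2fl/fl replicate 1. At an unadjusted p under 0.05, 2 of the 9 were higher in Slit2th, where 3.99% of all tested genes were, and 0 of the 9 were lower, where 6.78% were. The groups did not overlap, with Slit2th higher, for 4 of the 9 (8.74% of all tested genes) and, with Slit2th lower, for 1 of the 9 (9.72% of all tested genes). Of those 4, Fn1 and Nid1 did overlap as a share of each library's total counts, without TMM scaling. All 9 were above 1 CPM in each of the 6 libraries, and Has2 alone failed the filter on low counts. Summed over the 10 genes, the level was 2237, 2709.9 and 2708 CPM in Slit2fl/fl against 3655, 3408 and 3292 CPM in the Slit2th libraries.

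**Figure D1:**
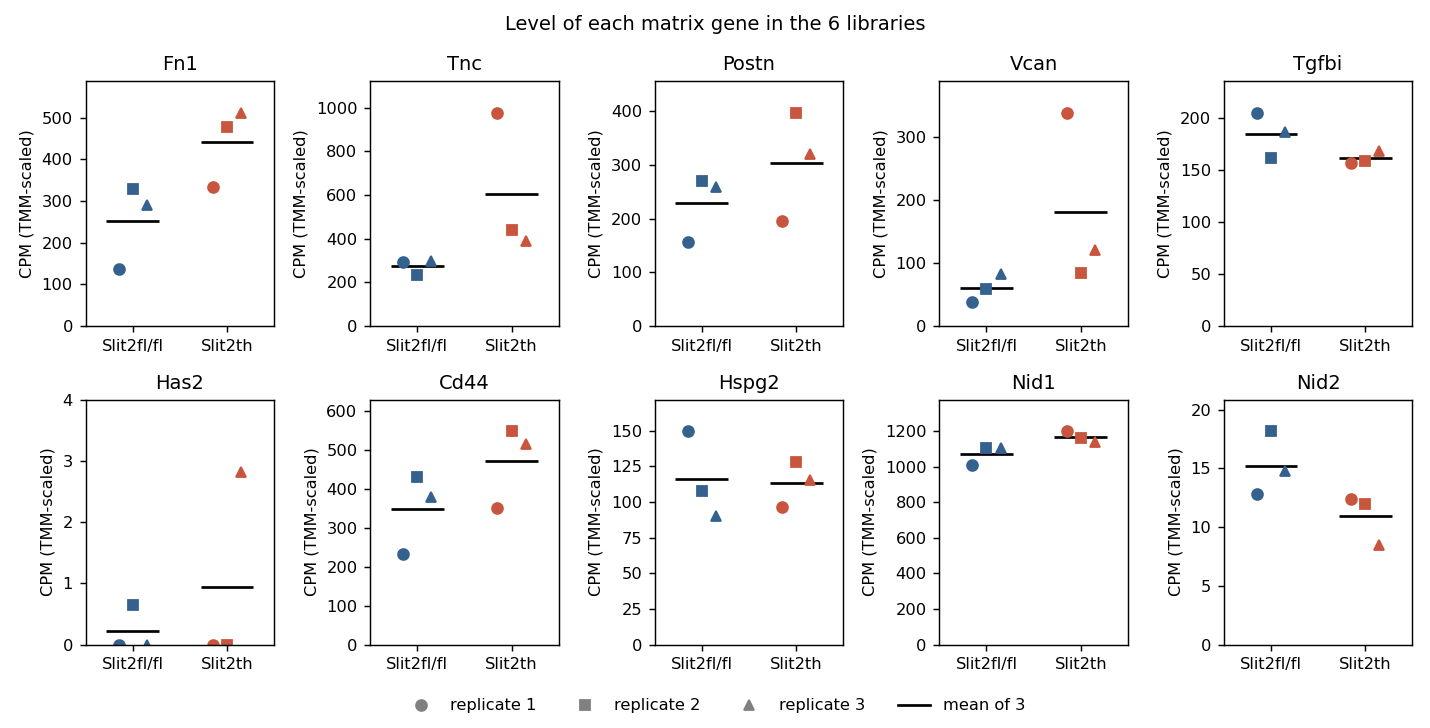
TMM-scaled CPM (vertical axis, from 0, with its own scale in each panel) of the 10 matrix genes in the 3 Slit2fl/fl and 3 Slit2th libraries, with symbols for the replicate number and a line at the mean of 3. The Slit2th points lie above all Slit2fl/fl points for Fn1, Tnc, Vcan and Nid1 and below them for Nid2, and replicate 1 is the highest Slit2th point for Tnc (976 CPM) and Vcan (338 CPM).

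Among the provisional matrix genes, Fn1 (ENSMUSG00000026193, fibronectin; chromosome 1 of GRCm38, 71585520 to 71653200, minus strand) stood at 136, 328 and 290 CPM in Slit2fl/fl and at 333, 478 and 511 CPM in Slit2th replicates 1, 2 and 3. The groups did not overlap, but the gap was narrow, between 328 and 333 CPM (two-sided exact permutation test of log2(CPM + 1), p = 0.10, the lowest value possible with 3 libraries in each group). Without TMM scaling they overlapped, with 0.0330% of total counts in Slit2fl/fl replicate 2 against 0.0300% in Slit2th replicate 1. Its log2 fold change came to 0.81 (standard error 0.41, unadjusted p = 0.0765, adjusted p = 0.489 by edgeR's quasi-likelihood test). Slit2fl/fl replicate 1 was the low library, and without it the log2 fold change was 0.51 (adjusted p = 0.690, edgeR). Exons of Apol7d on the opposite strand overlap Fn1, with 2 counts over all libraries.

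Tnc (ENSMUSG00000028364, tenascin C, a hexameric glycoprotein that modulates adhesion to fibronectin; chromosome 4, 63959785 to 64047015, minus strand) stood at 293, 233 and 297 CPM in Slit2fl/fl and at 976, 441 and 392 CPM in Slit2th replicates 1, 2 and 3. The controls lay close together, all 3 Slit2th libraries were above them (exact permutation test, p = 0.10), and Slit2th replicate 1 was far above the rest. The log2 fold change was 1.14 (standard error 0.42, unadjusted p = 0.0237, adjusted p = 0.429, edgeR). Without Slit2th replicate 1 it was 0.61 (unadjusted p = 0.105, adjusted p = 0.469, edgeR). The unadjusted p was 0.0772 and 0.0751 in the fits without Slit2fl/fl replicates 2 and 3. The antisense gene 8030451A03Rik overlaps its exons and had 23 counts in all, against 359 to 1106 per library for Tnc.

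Vcan (ENSMUSG00000021614, versican; chromosome 13, 89655312 to 89742509, minus strand) stood at 38.7, 58.3 and 82.4 CPM in Slit2fl/fl and at 338, 84.4 and 121 CPM in Slit2th replicates 1, 2 and 3. As for Tnc, Slit2th replicate 1 was far above the other libraries, and the lowest Slit2th library was only just above the highest Slit2fl/fl library (exact permutation test, p = 0.10). The log2 fold change of 1.60 (standard error 0.56, unadjusted p = 0.0186, adjusted p = 0.422, edgeR) was the largest of the 9. It was 0.79 without Slit2th replicate 1 (unadjusted p = 0.0879, adjusted p = 0.450, edgeR). The unadjusted p was also above 0.05 without Slit2fl/fl replicate 1 (0.0651) and without Slit2fl/fl replicate 2 (0.0513).

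Postn (ENSMUSG00000027750, periostin, a fasciclin-domain protein that links fibronectin, tenascin C and collagen; chromosome 3, 54361109 to 54391037, plus strand) stood at 157, 271 and 260 CPM in Slit2fl/fl and at 195, 397 and 321 CPM in Slit2th replicates 1, 2 and 3. Replicate 1 was the low library of each group, and the groups overlapped (exact permutation test, p = 0.40). The log2 fold change was 0.41 (standard error 0.39, adjusted p = 0.672, edgeR). It was 0.18 without Slit2th replicate 2, 0.20 without Slit2fl/fl replicate 1, 0.65 without Slit2th replicate 1 and -0.11 with offsets corrected for GC content, Postn having 36.3% GC in its longest transcript. Tgfbi (ENSMUSG00000035493, the fasciclin-domain protein induced by TGF-beta; chromosome 13, 56609523 to 56639562, plus strand) was even across libraries, at 205, 161 and 187 CPM in Slit2fl/fl and at 157, 159 and 168 CPM in Slit2th. Its log2 fold change was -0.19 (standard error 0.30, adjusted p = 0.807, edgeR), or 0.01 with the GC-corrected offsets. The related proteins Postn and Tgfbi thus had log2 fold changes of different sign, neither of which passed a threshold.

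Without replicate 1 of both groups, a fit of 2 libraries against 2 with genes of at least 1 CPM in 2 libraries, 369 of 12541 genes (2.94%) had an adjusted p under 0.05 by edgeR's test and 0 of the 9 members did. In that fit Fn1 had a log2 fold change of 0.67 (unadjusted p = 0.00249, adjusted p = 0.0670), Tnc of 0.64 (unadjusted p = 0.00478, adjusted p = 0.0968) and Vcan of 0.53 (unadjusted p = 0.0604, adjusted p = 0.317). With Postn (0.42, unadjusted p = 0.0419, adjusted p = 0.268), 3 of the 9 had an unadjusted p under 0.05, against 17.2% of all genes. Nid2 had the largest log2 fold change in size of the 9 in this fit, at -0.69, whereas Vcan had it in the fit of all 6 libraries.

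**Figure D2:**
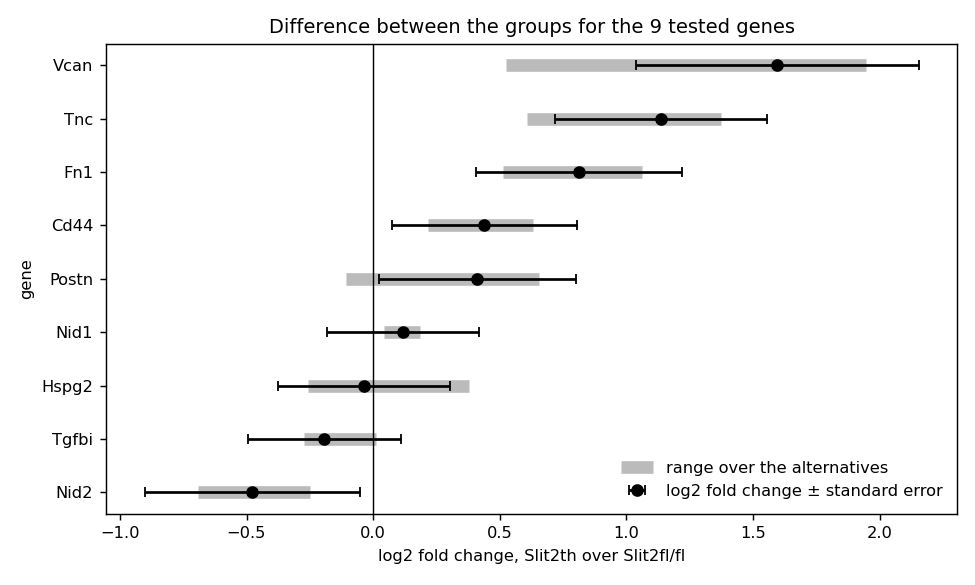
Log2 fold change of Slit2th over Slit2fl/fl (horizontal axis) for the 9 tested genes, as points with standard errors from edgeR's quasi-likelihood fit, over a grey bar for the lowest to highest value in 15 other settings. The bars of Vcan (0.53 to 1.95), Tnc (0.61 to 1.37), Fn1 (0.51 to 1.06), Cd44 and Nid1 lie wholly above 0 and that of Nid2 below it, while those of Postn, Hspg2 and Tgfbi cross 0.

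Of the hyaluronan genes, the receptor was well counted and the synthases were at or near the floor. Cd44 (ENSMUSG00000005087; chromosome 2, 102811141 to 102901665, minus strand) stood at 234, 430 and 379 CPM in Slit2fl/fl and at 349, 547 and 516 CPM in Slit2th replicates 1, 2 and 3. Replicate 1 was the low library of each group and the groups overlapped (exact permutation test, p = 0.30), with a log2 fold change of 0.44 (standard error 0.36, adjusted p = 0.632, edgeR) that was 0.22 without Slit2fl/fl replicate 1. Has2 (ENSMUSG00000022367, the hyaluronan synthase of most mesenchymal cells; chromosome 15, 56665627 to 56694539, minus strand) had 0, 1 and 0 counts in Slit2fl/fl and 0, 0 and 5 counts in Slit2th. It was thus above the floor of 3 counts in 1 library only, Slit2th replicate 3, and no fold is given. The other synthases, Has1 and Has3, were at 0 to 1.43 CPM and 0 to 0.883 CPM. Ugdh, which makes the UDP-glucuronic acid that the synthases use and had the highest CPM of the hyaluronan list as a mean over all 6 libraries (not scaled by length, and not the highest in Slit2fl/fl alone), stood at 195, 439 and 413 CPM in Slit2fl/fl and at 471, 550 and 617 CPM in Slit2th (log2 fold change 0.65, standard error 0.39, adjusted p = 0.534, edgeR).

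The log2 fold changes of the basement membrane genes lay between -0.48 and 0.12. Nid1 (ENSMUSG00000005397, nidogen 1; chromosome 13, 13437551 to 13512269, plus strand) stood at 1011, 1103 and 1107 CPM in Slit2fl/fl and at 1198, 1162 and 1137 CPM in Slit2th replicates 1, 2 and 3. All Slit2th libraries were above all Slit2fl/fl libraries (exact permutation test, p = 0.10), but the log2 fold change was only 0.12 (standard error 0.30, adjusted p = 0.881, edgeR). Without TMM scaling the groups overlapped, with 0.111% of total counts in Slit2fl/fl replicate 2 against 0.108% in Slit2th replicate 1. Nid2 (ENSMUSG00000021806, nidogen 2; chromosome 14, 19751265 to 19811787, plus strand) stood at 12.8, 18.1 and 14.8 CPM in Slit2fl/fl and at 12.4, 11.9 and 8.47 CPM in Slit2th, on 14 to 40 counts per library. It was the only member whose Slit2th libraries were all below the Slit2fl/fl libraries (exact permutation test, p = 0.10), with a narrow gap and a log2 fold change of -0.48 (standard error 0.42, adjusted p = 0.654, edgeR). Exons of Rtraf on the opposite strand overlap those of Nid2 and had 443 to 867 counts per library, and since the strand setting of the counting is not given, the low Nid2 counts are uncertain. Hspg2 (ENSMUSG00000028763, perlecan, a heparan sulfate proteoglycan; chromosome 4, 137468769 to 137570630, plus strand) stood at 149.5, 108 and 90.4 CPM in Slit2fl/fl and at 96.2, 128 and 115 CPM in Slit2th. The groups overlapped, and the log2 fold change of -0.04 (standard error 0.34, adjusted p = 0.970, edgeR) became 0.28 without replicate 1 of both groups and 0.38 with GC-corrected offsets.

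Libraries also differed in ways that the members shared. Slit2fl/fl replicate 1 was the lowest of the 6 libraries for 5 of the 9 tested genes (Fn1, Nid1, Vcan, Cd44 and Postn) and the highest for Tgfbi and Hspg2. Slit2th replicate 1 was the highest for Nid1, Vcan and Tnc. Sums of marker lists differed between libraries as well, and 0 of these markers passed the adjusted threshold of edgeR's test. At an unadjusted p under 0.05, their counts stand beside 3.99% of all tested genes higher and 6.78% lower in Slit2th. The 17 fibroblast markers counted summed to 2540 to 3365 CPM in Slit2fl/fl and to 3418 to 4774 CPM in Slit2th, with 12 of 15 tested positive and 3 higher and 0 lower at an unadjusted p under 0.05. The 16 macrophage markers summed to 41.5 to 133 CPM in Slit2fl/fl and to 141 to 719 CPM in Slit2th, with the 719 in Slit2th replicate 1. Of that 719, 182 CPM came from Aif1, which was not tested and had 206 counts there against 0 to 2 in any other library. At an unadjusted p under 0.05, 7 of 13 tested were higher and 0 lower. Some of the 7 rested on few counts, with 0 to 9 per library for Mrc1, Ptprc and Itgam. C1qa, another of the 7, had 84 counts in Slit2th replicate 1 against 0 to 10 in any other library. No list member was at 0 in every library. Glia markers also did not overlap between the groups, at 6264 to 12762 CPM against 14866 to 21560 CPM, with 0 higher and 1 lower at an unadjusted p under 0.05. The 16 proliferation markers summed to 626 to 651 CPM against 259 to 467 CPM, with 14 of 16 negative in log2 fold change and 6 lower and 0 higher at an unadjusted p under 0.05. The 12 endothelial and mural markers were at 36.4 to 121 CPM against 29.1 to 51.4 CPM. The part of these cell contents in the values of Vcan, Tnc and Fn1 was not tested.

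To compare levels between genes, CPM were divided by the length of each gene's merged exons. Nid1 was the most abundant of the 10 in every library, at 155 ± 7.83 CPM per kilobase in Slit2fl/fl and 168 ± 4.40 in Slit2th (SD, n = 3 each). In Slit2fl/fl it was followed by Cd44 (51.3 ± 15.0), Tgfbi (48.9 ± 5.81), Tnc (35.3 ± 4.64), Postn (26.3 ± 7.22), Fn1 (21.5 ± 8.69), Hspg2 (8.10 ± 2.13), Vcan (4.14 ± 1.51) and Nid2 (2.95 ± 0.522), all in CPM per kilobase with SD over 3 libraries. Of these neighbours, the ranges of Cd44 and Tgfbi, Tnc and Postn, Postn and Fn1, and Vcan and Nid2 overlapped, so their order is within the spread. In Slit2th, Tnc came after Nid1 at 77.6 ± 41.7 CPM per kilobase (50.4 to 126), with a range that overlapped that of Cd44 (51.6 to 80.8), and Vcan (5.84 to 23.4) overlapped Hspg2 (6.72 to 8.94). Nid1 exceeded Nid2 in every library on this scale, by its lowest value of 146 against the highest of 3.51 CPM per kilobase for Nid2.

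**Figure D3:**
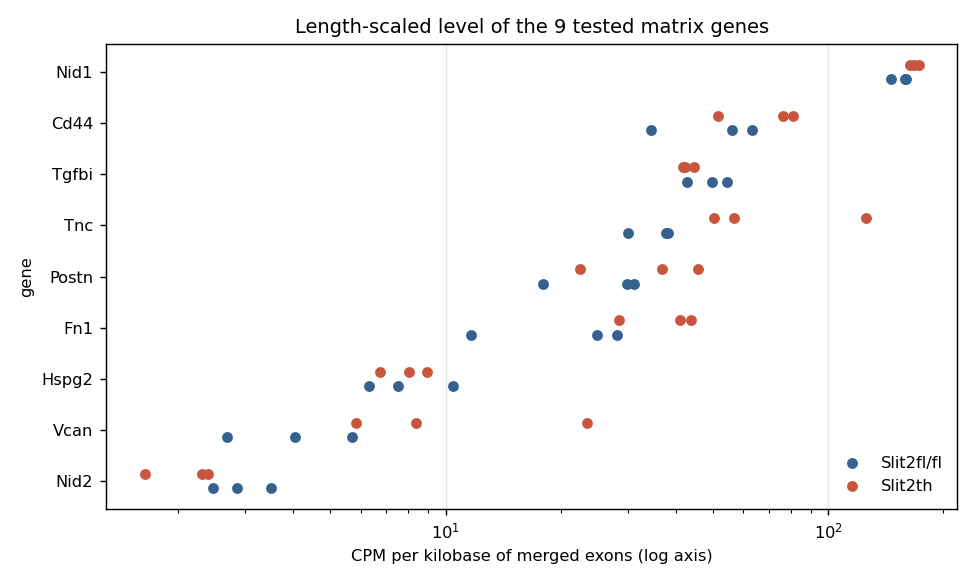
CPM per kilobase of merged exons (horizontal log axis) of the 9 tested genes, with a point for each of the 3 Slit2fl/fl and 3 Slit2th libraries, ordered by the Slit2fl/fl mean. Nid1 stands apart at 146 to 172, Cd44, Tgfbi, Tnc, Postn and Fn1 lie between 11.6 and 126, and Hspg2, Vcan and Nid2 lie between 1.64 and 23.4.

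The other genes of these pathways were taken from 5 lists with 70 gene names, of which 66 were in the table and 50 were tested. Of the 50, 25 had log2 fold changes above 0 and 25 below 0 (median 0.01), 0 passed the adjusted threshold by edgeR's test, and at an unadjusted p under 0.05 there was 1 higher and 1 lower. The shares over all tested genes were 3.99% higher and 6.78% lower, so these counts were no more than the background, and both genes are given by their values only. The higher gene was Lox, lysyl oxidase, which cross-links collagen and elastin and binds fibronectin. It stood at 8.01, 30.5 and 27.3 CPM in Slit2fl/fl and at 73.3, 104 and 116 CPM in Slit2th, so that the groups were well apart (log2 fold change 2.17, standard error 0.52, unadjusted p = 0.00237, adjusted p = 0.422, edgeR). The lower gene was Col4a2, a type IV collagen chain of the basement membrane. It stood at 252, 120 and 152 CPM in Slit2fl/fl and at 49.4, 57.3 and 66.0 CPM in Slit2th (log2 fold change -1.60, standard error 0.38, unadjusted p = 0.00236, adjusted p = 0.422, edgeR). Its partner chain Col4a1, named after its values were seen, had a log2 fold change of 0.34 (adjusted p = 0.723).

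In the list of fibronectin assembly and receptors, 15 of 16 genes were tested, 8 of them above 0 and 7 below 0 in log2 fold change, and Lox was the only gene past an unadjusted p of 0.05. Itgb1, the beta chain of most fibronectin-binding integrins, had the list's highest mean CPM over all 6 libraries, though not in Slit2th alone. It stood at 513, 393 and 502 CPM in Slit2fl/fl and at 305, 305 and 310 CPM in Slit2th, without overlap (log2 fold change -0.61, standard error 0.30, adjusted p = 0.487, edgeR). Among tenascins, fasciclins and their partners only 3 of 8 genes were tested, none of them a tenascin, and 0 passed. The tenascin genes Tnr and Tnxb had no count in any library. Bmp1, a protease that processes matrix proteins and the gene of highest mean CPM in that list, stood at 143, 90.7 and 87.6 CPM in Slit2fl/fl and at 246, 95.9 and 86.9 CPM in Slit2th. Of 9 lecticans, link proteins and aggrecanases in the table, 4 were tested, all of them Adamts proteases, and 0 passed. Adamts5, a protease that cleaves versican, stood at 864, 1472 and 1549 CPM in Slit2fl/fl and at 2010.4, 1848 and 1885 CPM in Slit2th (log2 fold change 0.56, standard error 0.35, adjusted p = 0.545, edgeR). The test covered 14 of 18 hyaluronan genes counted, 8 positive and 6 negative, and 0 passed. In the basement membrane list, 14 of 15 were tested, 6 positive and 8 negative, with Col4a2 the 1 gene past an unadjusted p of 0.05; Sparc, a collagen-binding protein and its gene of highest mean CPM, stood at 3900.3 to 7295 CPM in Slit2fl/fl and at 5126 to 5641 CPM in Slit2th.

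**Figure D4:**
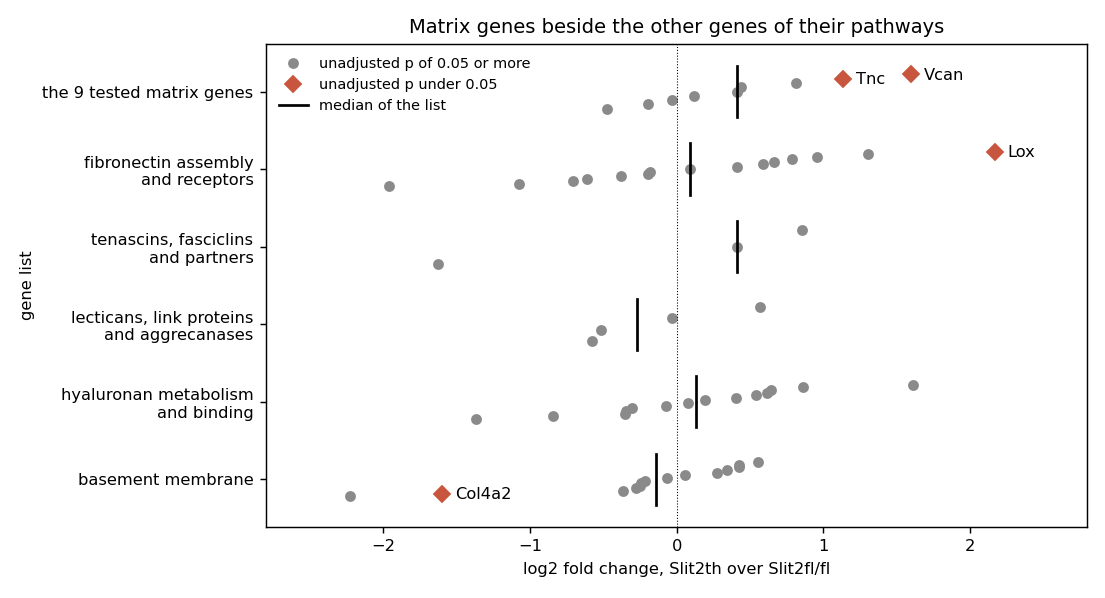
Log2 fold change of Slit2th over Slit2fl/fl (horizontal axis) for the 9 tested matrix genes and the 50 tested genes of 5 pathway lists (rows), with a point for each gene, a diamond where the unadjusted p is under 0.05 and a vertical line at the list's median. The medians run from -0.27 for the list of lecticans, link proteins and aggrecanases to 0.41 for the 9 genes and for the tenascin list. In the former only Adamts proteases were tested, and in the tenascin list no tenascin was. The named genes are Vcan, Tnc, Lox and Col4a2.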

How the data were processed

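The authors prepared Illumina TruSeq libraries, aligned the reads with HISAT2 and deposited 1 table of read counts, whole numbers per gene and library that were not normalized. The paper names mm10 and the labels list GRCm39 as the build; the counting program, its strand setting and the annotation are not given in the sources used here. Of 20173 gene identifiers, 20159 were found in GENCODE M21 (GRCm38), from which positions, merged exon lengths and GC content of the longest transcript were taken.

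The main tool was edgeR 4.0.16 under R 4.3.3; DESeq2 1.42.0 and limma 3.58.1 gave alternatives. The 12152 genes that reached 1 CPM in 3 or more libraries were normalized by TMM and compared across all genes by edgeR's quasi-likelihood test, with no covariate and Benjamini-Hochberg adjustment. The biological coefficient of variation was 50.4%. For each member, an exact two-sided permutation test of log2(CPM + 1) was run in scipy 1.17.1. Other normalizations, filters, tests, a replicate block, GC-corrected offsets and the leaving out of libraries were tried as alternatives; replicate 1 of both groups was left out because earlier results had shown these libraries to stand apart. The fit was tested on simulated counts. The members, gene lists and alternatives were chosen with earlier results of these data known. Named were all members, Slit2, Th, and pathway genes at an unadjusted p under 0.05 or of highest mean CPM in their list. Marker lists were given by their sums. Has1, Has3, Tnr, Tnxb, Col4a1, Aif1, Mrc1, Ptprc, Itgam and C1qa were named after their values were seen.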

Additional observations from a re-analysis of the deposited data

How the results depend on the processing

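Under all 15 alternatives, 0 of the 9 tested members passed the adjusted threshold, and 129 of 135 member values kept their direction. The exceptions were Hspg2 (0.28 without replicate 1 of both groups, 0.38 with GC-corrected offsets, and -0.26 to 0.19 with 1 library left out), Tgfbi (0.011) and Postn (-0.11), the last 2 with GC-corrected offsets. Across genes, log2 fold change and GC content had a rank correlation of -0.344 before and -0.039 after that correction. The members' median log2 fold change of 0.41 was 0.18 to 0.61 with 1 library left out, lowest without Slit2th replicate 2 (0.18) and Slit2fl/fl replicate 1 (0.20), and the cause was not tested. The count of all genes past the adjusted threshold, 0 in edgeR's test, was 34 with DESeq2, 7 with no filter on low counts, 0 to 1 with 1 library left out and 369 without replicate 1 of both groups.

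The replicate numbers did not clearly pair the libraries: deviations from the group means correlated across genes at 0.292, 0.244 and 0.0808 for replicates 1, 2 and 3, and Slit2fl/fl replicate 2 correlated best with Slit2th replicate 3 (0.255). With the replicate block, 0 genes passed after adjustment, 1614 of 12152 had an unadjusted p under 0.05, and so did 3 of the 9 members: Fn1 (log2 fold change 0.88, adjusted p = 0.313), Tnc (1.02, adjusted p = 0.311) and Vcan (1.37, adjusted p = 0.329).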
